A study of Homo sapiens with 6 samples.

Results

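The genes described are 10 members of the insulin-like growth factor (IGF) system and of a family of RNA-binding proteins named after IGF2: IGFBP2, IGFBP3, IGFBP4, IGFBP5, IGFBP6, IGFBP7, IGF1R, IGF2R, IGF2BP2 and IGF2BP3. They were chosen by name, with earlier results of these data known. Every probe set that the platform annotation gives to exactly 1 of these symbols was taken. This found 28 probe sets, of which 23 were bright enough to be tested, and all 10 genes were among the 12381 genes compared. Transcripts were read in U251 (U251MG in the labels), an established cell line from a human glioma. In 3 cultures the cells grew on electrospun nanofibers of the polyester poly-caprolactone that were highly aligned, and in 3 cultures on fibers of the same material lying in random directions. All 6 cultures were kept for 24 h on 60 mm dishes in medium with 10% serum, without any other treatment, and each was read on 1 array. The titles number the arrays 1 to 3 per substrate, and each array was taken as a separate culture. Serum itself carries IGFs, no flat or serum-free culture was analysed here, and the cells are of 1 line.

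IGF1 and IGF2 are small secreted hormones that act through IGF1R, a receptor tyrosine kinase that drives growth and survival through PI3K, AKT and MAP kinases. IGFBPs are secreted carriers that hold IGFs away from the receptor and release them when proteases cut them. IGF2R, the cation-independent mannose 6-phosphate receptor, has no kinase: it carries IGF2 and lysosomal enzymes into the cell. IGF2BP2 and IGF2BP3 share only a name with the carriers, since they bind IGF2 messenger RNA and many other transcripts in the cytoplasm. IGFBP2 and the IGF2BPs are known as genes of high expression in glioblastoma.

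IGFBP2, IGFBP5 and IGFBP7 read lower on aligned than on random fibers and IGF2BP2 read higher, in each case with no overlap between the 3 aligned and the 3 random arrays. The log2 differences, aligned minus random, were -0.48 for IGFBP2, -0.39 for IGFBP5, -0.21 for IGFBP7 and 0.21 for IGF2BP2. None of the 10 genes passed the test over all genes in limma at an adjusted p of 0.05, where 0 of 12381 genes passed (0%). The same 4 were the members with an unadjusted p under 0.05, a level that 10.5% of all genes reached (1303 genes). With weights per array, estimated in a fit that did not converge, these 4 were among 2101 of 12381 genes that passed. In that setting 7 members and 34.9% of all genes had an unadjusted p under 0.05. Groups that do not overlap were likewise seen in 18.0% of all genes, 8.71% higher and 9.33% lower on aligned fibers. By sign alone 4 members were lower, IGF1R being the fourth, and 6 higher, where 47.5% of all genes were lower. The count of 4 was 6 without aligned 1 (20.1% of all genes then), 2 without aligned 3 (6.58%) and 1 without random 3 (5.04%). Without each other array it was 3 (5.97% to 9.67%). With the mean of kept probe sets it was 2, IGFBP2 and IGF2BP2 (10.3%), and IGFBP5 and IGFBP7 dropped out. Over the 10 genes the median log2 difference was 0.05 against 0.01 over all genes, and the median size regardless of sign was 0.21 against 0.10. The 10 genes were chosen with earlier results of these data known, so these contrasts are not an independent test. In RNA of whole cultures, fewer cells expressing a gene and less RNA per cell cannot be told apart.

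Aligned 3 stood apart from the other arrays, with a root mean square distance of 0.38 log2 units from the mean of the random arrays, against 0.19 for aligned 2 and 0.17 for aligned 1. The astroglial and glioma markers VIM, SOX2, NES and CD44 lay at or above percentile 95.8 of every array, and 7 of 10 listed markers passed the filter on dim probe sets. S100B, AQP4 and ALDH1L1 did not, and the astrocyte filament gene GFAP lay between percentiles 36.4 and 64.6. Of other cell types, 4 of 5 neuronal, 2 of 5 oligodendrocyte, 1 of 5 microglial and 2 of 5 endothelial markers passed. Log2 values were summed over all listed markers on the array, those that did not pass included. The sums were 30.88 to 31.84 on aligned and 29.99 to 30.64 on random fibers for neurons. For microglia, where 1 of 5 had passed, they were 24.08 to 24.15 against 23.38 to 23.79. For oligodendrocytes they were 25.13 to 25.43 against 25.35 to 25.95, for endothelium 26.75 to 27.45 against 26.01 to 26.86, and for the astroglial list 85.37 to 91.25 against 90.38 to 93.26. Aligned minus random, SYT1 differed by 0.56 and the other neuronal markers by 0.05 to 0.12. In the astroglial list S100B, too dim to be tested, FABP7 and GFAP differed by -1.13, -0.90 and -0.81, and the others by -0.44 to -0.02. The part of these markers in the differences described here was not tested.

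The stretches of 250 bases before the annotated start are shown for IGFBP2, IGFBP5 and IGF2BP2, whose arrays separated by substrate, and for IGF1R, the signalling receptor. They come from RefSeq on GRCh38.p14, where 9 of the 10 genes, all but IGFBP7, were matched. IGFBP2 has 3 annotated starts and IGF2BP2 has 2, and the window with most CpG pairs is given. They are read 5′ to 3′ on the gene's own strand, and capitals mark the GC box GGGCGG on either strand.
IGFBP2, chr2:216633170-216633419, + strand: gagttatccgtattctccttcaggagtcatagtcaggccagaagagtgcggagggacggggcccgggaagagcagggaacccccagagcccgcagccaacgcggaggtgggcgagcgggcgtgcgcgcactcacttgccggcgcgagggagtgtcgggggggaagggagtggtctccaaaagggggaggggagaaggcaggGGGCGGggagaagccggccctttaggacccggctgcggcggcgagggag
IGFBP5, chr2:216695550-216695799, - strand: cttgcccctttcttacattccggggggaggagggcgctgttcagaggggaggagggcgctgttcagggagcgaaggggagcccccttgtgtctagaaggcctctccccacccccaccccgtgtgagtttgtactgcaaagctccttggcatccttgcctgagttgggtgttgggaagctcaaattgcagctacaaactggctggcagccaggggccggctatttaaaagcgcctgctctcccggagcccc
IGF2BP2, chr3:185825043-185825292, - strand: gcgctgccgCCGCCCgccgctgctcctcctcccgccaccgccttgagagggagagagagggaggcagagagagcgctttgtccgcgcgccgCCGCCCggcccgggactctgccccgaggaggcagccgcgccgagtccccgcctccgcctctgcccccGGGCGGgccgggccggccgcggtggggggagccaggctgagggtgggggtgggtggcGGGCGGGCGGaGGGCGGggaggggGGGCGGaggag
IGF1R, chr15:98648289-98648538, + strand: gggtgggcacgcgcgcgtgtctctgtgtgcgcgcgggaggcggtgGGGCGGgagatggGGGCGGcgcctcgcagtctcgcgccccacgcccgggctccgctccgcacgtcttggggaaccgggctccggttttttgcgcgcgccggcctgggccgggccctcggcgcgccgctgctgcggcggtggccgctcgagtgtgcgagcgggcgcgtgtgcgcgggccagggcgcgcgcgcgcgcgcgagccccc
GC boxes, sites that factors of the Sp family bind, were matched 7 times before IGF2BP2, some of them overlapping, 2 times before IGF1R, 1 time before IGFBP2 and 0 times before IGFBP5. They occur in 42.5% of the 34943 windows of all genes. None of these 4 windows held CACGTG (6.32% of all windows), GTCACGTG, which contains it (2.15%), TATAAA (10.8%), TGANTCA (6.59%), GTAAACA (2.98%) or TGACGTCA (1.63%), searched on both strands. The content of G and C was 81.6% before IGF2BP2, 81.2% before IGF1R, 69.2% before IGFBP2 and 61.2% before IGFBP5, where the median of all windows was 58%. The choice of window matters here, since the other start of IGF2BP2 had 32.8% G and C, 0 GC boxes, 1 TATAAA and 1 TGANTCA. The remaining starts of IGFBP2 had 56.8% and 56.4%, with 1 and 0 GC boxes. Such matches describe the letters and were not tested as sites.

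Of the carriers, IGFBP2 differed most in size among all 10 genes. IGFBP2 binds IGF1 and IGF2 and also integrins through an RGD stretch, and is one of the secreted proteins that gliomas make in quantity. Its log2 values were 9.49, 9.25 and 8.93 on aligned arrays 1 to 3 and 9.69, 9.56 and 9.84 on random arrays 1 to 3. All aligned arrays thus lay below all random arrays, with aligned 3 the lowest. The group means were 9.22 ± 0.28 and 9.70 ± 0.14 (SD, n = 3 each), so that IGFBP2 was 1.39-fold higher on random fibers. The log2 difference was -0.48 ± 0.15 (SE), with a 95% confidence interval of -0.82 to -0.13, an unadjusted p of 0.0134 and an adjusted p of 0.463 in limma. Between arrays of the same number the differences were -0.20, -0.32 and -0.91. Without aligned 3 the difference was -0.33 (unadjusted p = 0.0241 in limma) and without random 3 it was -0.41 (unadjusted p = 0.0528 in limma). The array carries a single probe set for IGFBP2, so no second reading of this gene was at hand.

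IGFBP5, the most conserved of the carriers and a protein that sits in the extracellular matrix, is the neighbour of IGFBP2 in the order of protein-coding genes on chromosome 2. Its brightest probe set read 7.82, 7.87 and 8.09 on aligned arrays 1 to 3 and 8.25, 8.47 and 8.22 on random arrays 1 to 3. Every aligned value lay below every random value, and aligned 3 was the aligned array nearest to the random ones. The means were 7.93 ± 0.14 and 8.31 ± 0.13 (SD, n = 3 each), and random fibers thus had 1.31-fold more signal. The log2 difference was -0.39 ± 0.10 (SE; 95% confidence interval -0.63 to -0.14), with an unadjusted p of 0.00684 and an adjusted p of 0.463 in limma. Differences between arrays of the same number were -0.44, -0.59 and -0.13, and without aligned 3 the value was -0.47. The other probe sets of IGFBP5 did not show this size. Of 6, those numbered 1555997_s_at and 203425_s_at were too dim to be tested, and differed by -0.06 and 0.07. The 3 others that were kept differed by -0.12, -0.07 and -0.0021, each with overlapping groups. The mean of all 4 kept probe sets differed by -0.14 (unadjusted p = 0.110 in limma), so the value of IGFBP5 rests on probe set 211959_at.

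IGFBP7 binds IGFs weakly and insulin as well, and is better known as a matrix protein of blood vessels and of senescent cells. It read 12.16, 12.02 and 11.998 on aligned arrays 1 to 3 and 12.29, 12.21 and 12.31 on random arrays 1 to 3, at or above percentile 98.8 of every array. The aligned values again lay below the random ones without overlap, here by a small margin. Means were 12.06 ± 0.09 and 12.27 ± 0.06 (SD, n = 3 each), or 1.16-fold higher on random fibers. The log2 difference was -0.21 ± 0.08 (SE; 95% confidence interval -0.39 to -0.03), with an unadjusted p of 0.0267 and an adjusted p of 0.463 in limma. A further kept probe set, 201163_s_at, differed by -0.15 with overlapping groups, and the third, too dim to be tested, differed by -0.44. The gene's difference lay between -0.26 and -0.18 when any single array was left out. Its unadjusted p in limma was then above 0.05 for 4 of the 6 arrays. It reached 0.0882 when aligned 2 and 0.0632 when aligned 3 was omitted, and 0.0748 when random 1 and 0.0707 when random 3 was. For the mean of the kept probe sets it was 0.0549.

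IGFBP4, a carrier that restrains IGF action until the protease PAPPA cuts it, read higher on aligned fibers on average but not on every array. Its values were 6.32, 6.996 and 7.48 on aligned arrays 1 to 3 and 6.35, 6.73 and 6.68 on random arrays 1 to 3. Aligned 1 lay below all random arrays while aligned 2 and 3 lay above them. The log2 difference was 0.35 ± 0.27 (SE; 95% confidence interval -0.28 to 0.98; adjusted p = 0.614 in limma). It was 0.07 without aligned 3 and 0.65 without aligned 1, the widest range of the 10 genes. IGFBP4 has 1 probe set on the array.

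IGFBP3, the main carrier of IGFs in blood, read 8.41, 8.64 and 8.72 on aligned arrays 1 to 3 and 8.55, 8.19 and 8.69 on random arrays 1 to 3. IGFBP6, which prefers IGF2, read 7.73, 7.26 and 7.54 on aligned and 7.79, 7.27 and 7.27 on random arrays. In both genes the groups overlapped almost completely. IGFBP3 differed by 0.11 ± 0.14 (SE; 95% confidence interval -0.22 to 0.45) and its other probe set by 0.01. IGFBP6 differed by 0.06 ± 0.17 (SE; 95% confidence interval -0.34 to 0.47). The sign of IGFBP3 turned without random 2, where it was -0.032. IGFBP6 was at -0.048 without aligned 1, -0.023 without random 2 and -0.024 without random 3, so neither gene had a settled direction at this number of arrays.

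**Figure D1:**
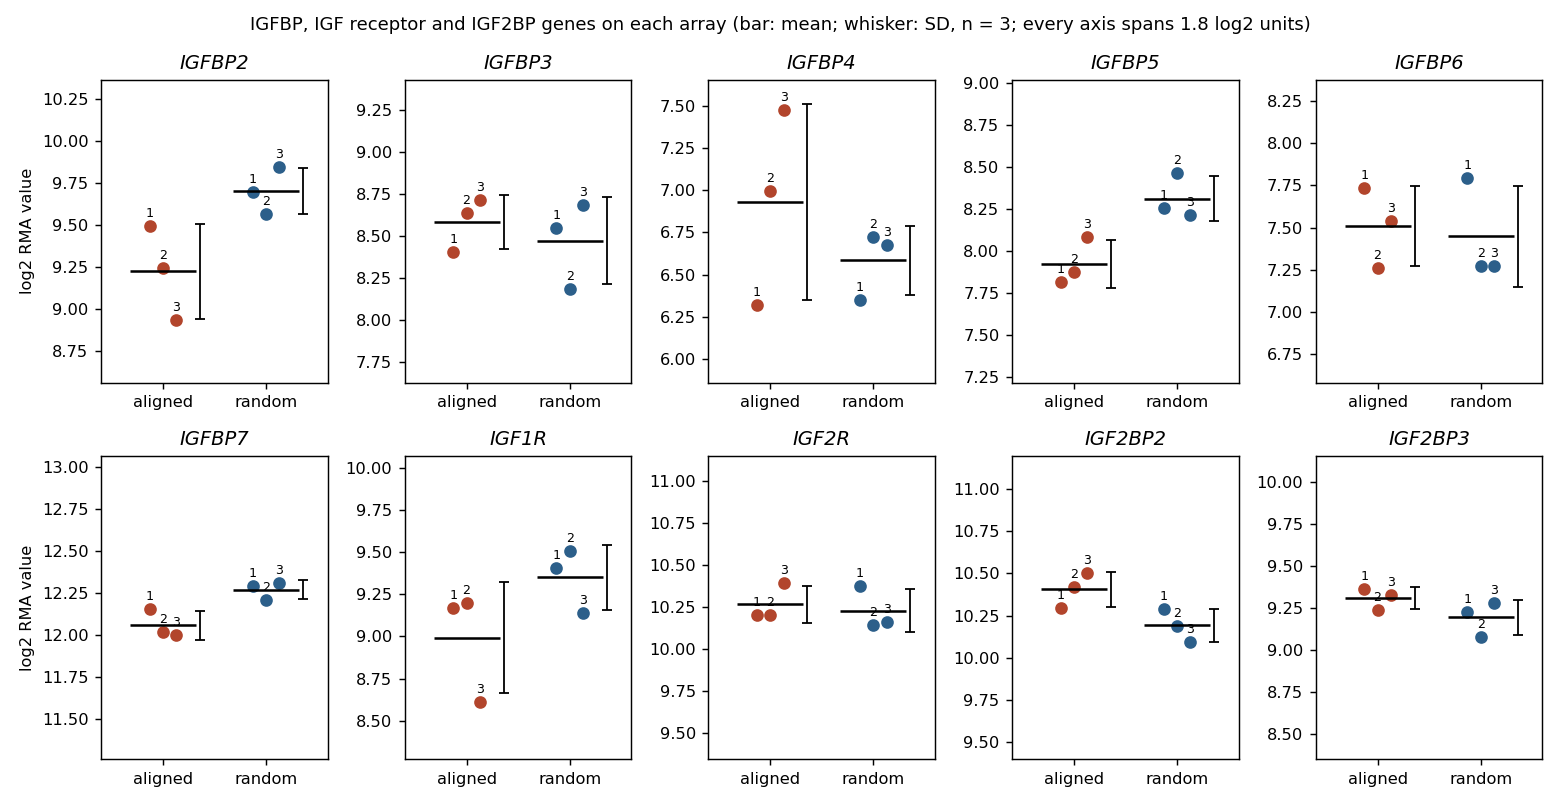
Log2 RMA values of the 10 genes on each of the 6 arrays, with the array number beside each point, the mean as a bar and the SD as a whisker (n = 3 per substrate). Every vertical axis spans the same width but starts at another level, since levels of different probe sets are not comparable. IGFBP2, IGFBP5 and IGFBP7 show all aligned points below the random points, IGF2BP2 shows them above, and the other 6 genes overlap.

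IGF1R, the receptor that signals, read lower on aligned fibers in each of its kept probe sets, without passing the test. The brightest one read 9.17, 9.20 and 8.61 on aligned arrays 1 to 3 and 9.41, 9.51 and 9.14 on random arrays 1 to 3. Aligned 3 was far below the rest, and random 3 lay below aligned 1 and aligned 2, so the groups overlapped. The means were 8.99 ± 0.33 and 9.35 ± 0.19 (SD, n = 3 each). They differed by -0.36 ± 0.17 log2 units (SE; 95% confidence interval -0.77 to 0.05), with an unadjusted p of 0.0760 and an adjusted p of 0.486 in limma. Within each array number the aligned array was lower, with differences of -0.24, -0.31 and -0.53, and blocking on the array number gave an unadjusted p of 0.00723 (adjusted p = 0.362 in limma). Its other kept probe sets differed by -0.39, -0.27 and -0.14, and the fifth, too dim to be tested, by 0.0017. In the probe set at -0.39, 203628_at, the groups did not overlap (unadjusted p = 0.0652 in the limma fit over probe sets). In those at -0.27 and -0.14 they overlapped. On all 4 kept probe sets aligned 3 was the lowest of the 6 arrays. Without it the difference of the gene was -0.17 (unadjusted p = 0.195 in limma).

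IGF2R, the scavenging receptor, read 10.21, 10.20 and 10.40 on aligned arrays 1 to 3 and 10.38, 10.15 and 10.16 on random arrays 1 to 3. The groups overlapped, and the log2 difference of 0.04 ± 0.10 (SE; 95% confidence interval -0.19 to 0.26) was smaller than the SD of 0.11 on aligned and 0.13 on random fibers. Its other probe sets differed by 0.09 and 0.08. The sign turned without aligned 3 (-0.025) and without random 2 (-0.0025).

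IGF2BP2, a binder of messenger RNA that is transcribed under the control of the chromatin protein HMGA2, was the member that read higher on every aligned array. Its brightest probe set read 10.29, 10.42 and 10.50 on aligned arrays 1 to 3 and 10.29, 10.19 and 10.09 on random arrays 1 to 3. The separation is narrow, since aligned 1 exceeded random 1 by 0.0027 log2 units. Means were 10.40 ± 0.11 and 10.19 ± 0.10 (SD, n = 3 each), or 1.16-fold higher on aligned fibers. The log2 difference was 0.21 ± 0.09 (SE; 95% confidence interval 0.01 to 0.42), with an unadjusted p of 0.0437 and an adjusted p of 0.472 in limma. Blocking on the array number gave an unadjusted p of 0.0765 in limma. The unadjusted p in limma was also higher without aligned 2 (0.107), aligned 3 (0.111), random 2 (0.0991) or random 3 (0.129), where the difference lay between 0.17 and 0.21. The second probe set differed by 0.09 with overlapping groups.

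IGF2BP3, a close relative that is switched on again in many tumours after fetal life, read 9.36, 9.24 and 9.33 on aligned arrays 1 to 3 and 9.23, 9.08 and 9.28 on random arrays 1 to 3. The groups overlapped in a single place, where random 3 exceeded aligned 2. The difference was 0.11 ± 0.08 (SE; 95% confidence interval -0.08 to 0.31; adjusted p = 0.591 in limma), and it was positive between arrays of every number, at 0.14, 0.16 and 0.05. Without random 2 it was 0.056. Its other kept probe sets differed by 0.20 and 0.06.

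Among kept probe sets the sign agreed within each gene, though some values lay near 0, at -0.0021 in IGFBP5 and 0.01 in IGFBP3. Among those too dim to be tested, 1 of IGFBP5 (0.07) and 1 of IGF1R (0.0017) had the other sign, and the rest had the sign of their gene. In each of the 7 members with more than 1 kept probe set, all kept ones had the same sign. This was also the case in 67.4% of the 6162 genes with more than 1 kept probe set. Probe sets of 1 gene read the same RNA and are not replicates. Of the 23 kept probe sets 12 read higher and 11 lower on aligned fibers, and 5 had groups that do not overlap, against 16.5% of all 27621 probe sets tested. Those lower made up 50.9% of all probe sets. The fit over probe sets in limma put 4 of the 23 under an unadjusted p of 0.05, against 2676 of all (9.69%), and called 0 of 27621 at the adjusted threshold.

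**Figure D2:**
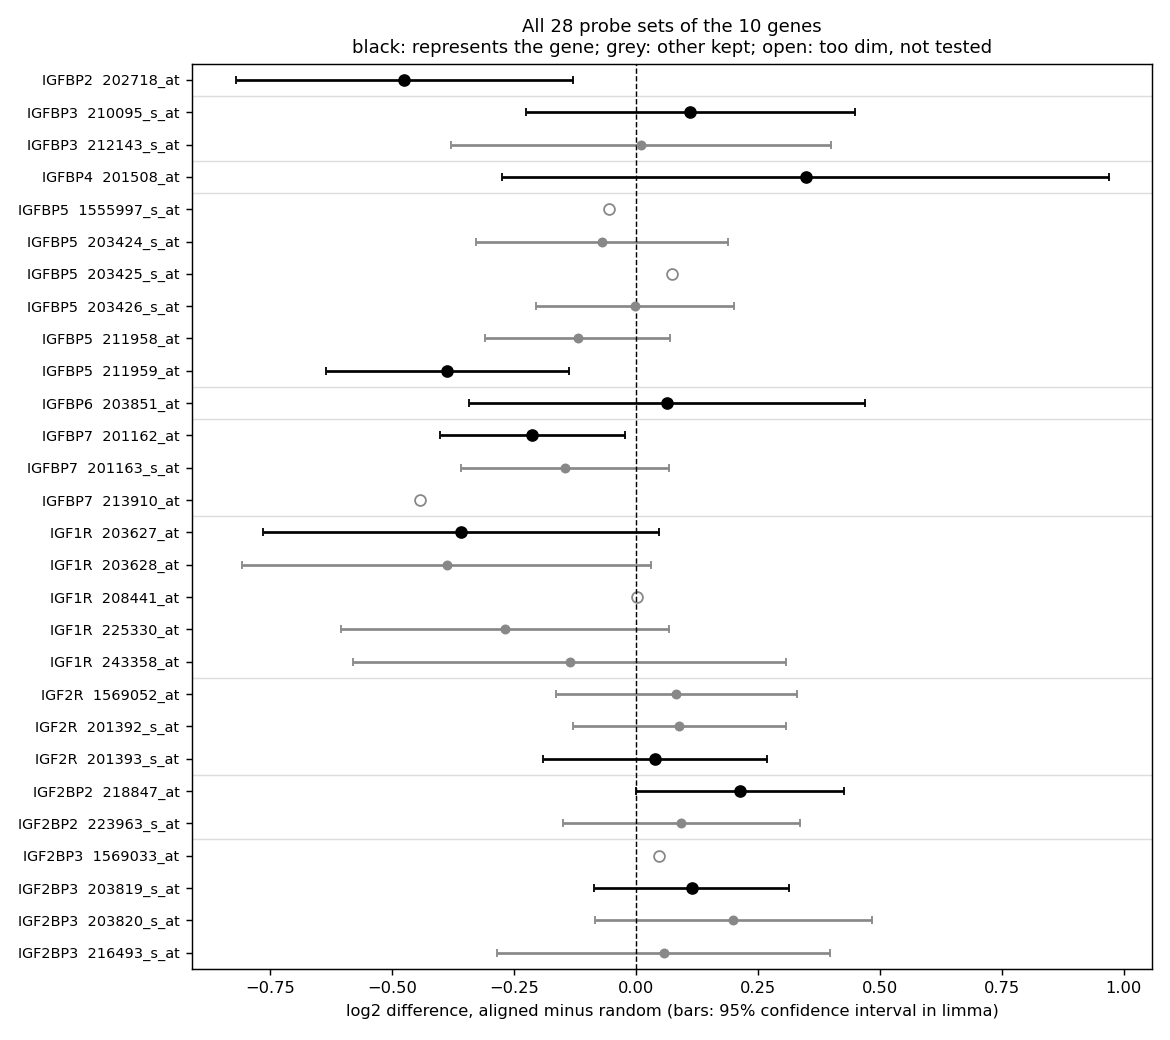
Log2 difference, aligned minus random, of all 28 probe sets of the 10 genes, with 95% confidence intervals from the fit over all kept probe sets. Black points represent the gene, grey points are other kept probe sets and open points were too dim to be tested. The 4 kept probe sets of IGF1R lie below 0 and the 3 of IGF2R and of IGF2BP3 above 0, whereas 1 probe set of IGFBP5, at -0.39, stands apart from its 3 others.

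**Figure D3:**
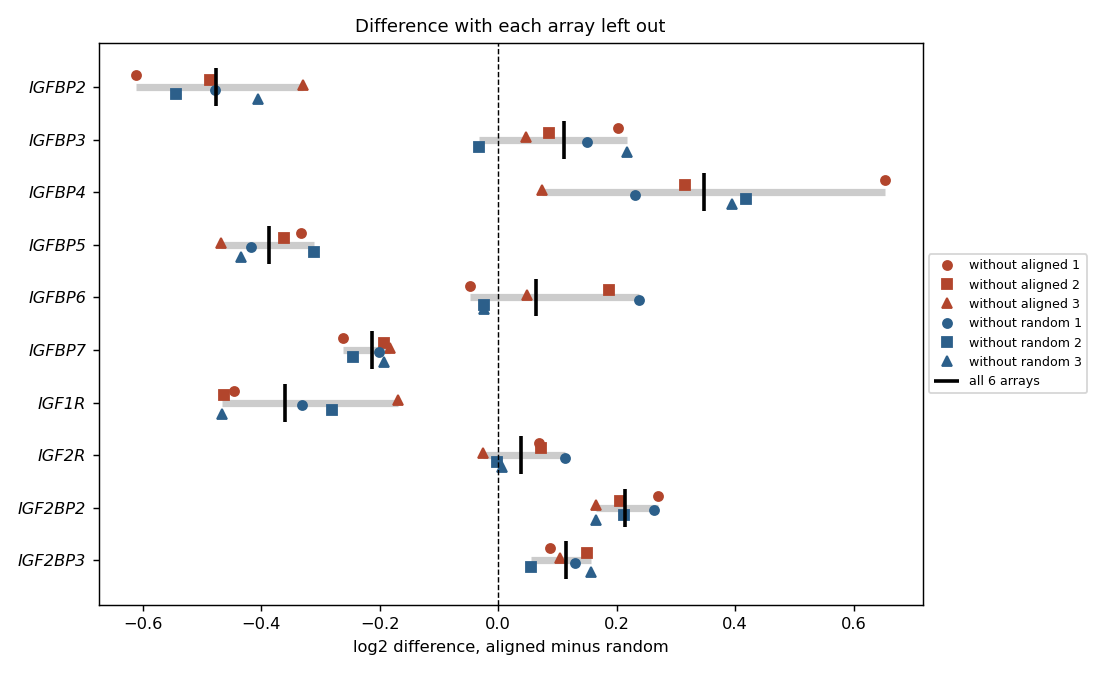
Log2 difference of each gene with all 6 arrays (black line) and with each array left out (points coloured by the substrate of the omitted array). IGFBP2, IGFBP5, IGFBP7 and IGF1R stay below 0 and IGFBP4, IGF2BP2 and IGF2BP3 above 0 in each case, while IGFBP3, IGFBP6 and IGF2R cross it. IGFBP4 spans 0.07 to 0.65.

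Of the ligands and receptors outside the 10 genes, 3 of 6 were measured. IGF1 passed the filter with 1 of its 5 probe sets, at most at percentile 59.1 of an array, and differed by 0.01 ± 0.14 (SE). The insulin receptor INSR differed by 0.06 ± 0.19, and both genes turned sign when single arrays were left out. IGFLR1, a receptor of the tumour necrosis factor receptor type that binds an IGF-like protein and not IGFs, differed by -0.31 ± 0.13 with overlapping groups (adjusted p = 0.472 in limma) and by -0.17 without random 3. INS and INSRR were too dim, and IGF2 has no probe set with a single symbol. IGFLR1 was the 1 gene of the 3 with an unadjusted p under 0.05, where 10.5% of all genes were. With 1 array left out it kept that level only without random 1.

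Regulators of the carriers included the stanniocalcins, secreted inhibitors of PAPPA, and they differed in opposite directions. STC1 read 9.58, 9.47 and 8.72 on aligned and 9.82, 10.25 and 10.21 on random arrays 1 to 3, without overlap. Its log2 difference was -0.84 ± 0.23 (SE; adjusted p = 0.463 in limma) and -0.57 without aligned 3. STC2 read 7.05, 7.39 and 8.82 on aligned and 7.12, 6.54 and 6.60 on random arrays, a difference of 1.01 ± 0.43 that overlapped and became 0.47 without aligned 3. PAPPA itself, which cuts IGFBP4, differed by 0.32 ± 0.25 with overlapping groups, and by 0.11 without random 3. The matricellular proteins CCN2 and CCN1, which contain a domain of the IGFBP type, differed by 0.64 ± 0.35 and 0.34 ± 0.22, and without random 3 by 0.19 and 0.08. In this list of 20 genes 16 were measured, with 11 higher and 5 lower, a median of 0.05, and 2 at an unadjusted p under 0.05, STC1 and STC2, against 10.5% of all genes. STC2 was no longer under it without random 2 or random 3.

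Downstream of IGF1R, adaptors and subunits of PI3K differed in both directions and 0 passed over all genes in limma. Of 15 measured adaptors of 19 listed, 9 read lower and 6 higher, with a median of -0.08. An unadjusted p under 0.05 was reached by 2, both lower (10.5% of all genes). That count was 1 without aligned 2 (8.38% of all genes then), 1 without random 2 (5.97%) and 0 without random 3 (5.04%). Without random 1 it was 2 higher and 1 lower (9.67%). GAB1, a docking protein for PI3K, read 6.99, 6.85 and 6.53 on aligned and 7.18, 7.09 and 7.53 on random arrays. Its log2 difference was -0.48 ± 0.15 (SE), and -0.35 without random 3. SH2B1 and SHC1, both adaptors of receptor kinases, differed by -0.18 ± 0.07 and -0.11 ± 0.07. GAB1, SH2B1 and SHC1 were the 3 of the 15 adaptors whose groups did not overlap, against 18.0% of all genes. SOCS3, a feedback inhibitor, differed by -0.28 ± 0.16, and by -0.12 without random 3 and -0.17 without aligned 3. Of 27 measured genes of the PI3K, AKT and mTOR arm out of 32, 12 read higher and 15 lower with a median of -0.01, and 5 had an unadjusted p under 0.05 (again against 10.5% of all genes). In this arm the count was 2 without random 2 (5.97% of all genes then) and 1 without random 3 (5.04%). Without aligned 1 it was 3 higher and 4 lower (20.1%). PIK3CD, a catalytic subunit, read 8.84, 9.15 and 9.35 on aligned and 8.61, 8.60 and 8.19 on random arrays. Its difference was 0.65 ± 0.16, and 0.51 without random 3. The regulatory subunits PIK3R1 and PIK3R3 differed the other way, by -0.39 ± 0.13 and -0.55 ± 0.18 (-0.26 and -0.39 without aligned 3), as did PHLPP1, a phosphatase of AKT, by -0.43 ± 0.14, which was -0.25 without aligned 3. In these 4 genes the groups did not overlap, and each adjusted p was 0.463 in limma. They were named for the lowest unadjusted p of the arm. Groups that do not overlap were seen in 6 of its 27 measured genes, against 18.0% of all genes.

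FOXO factors are held in the cytoplasm when AKT phosphorylates them, and their target genes include brakes on growth. In this list 17 of 18 genes were measured, 13 lower and 4 higher on aligned fibers, with a median log2 difference of -0.23 against 0.01 over all genes. The list was chosen with earlier results of these data known, so its contrast with all genes is not an independent test. An unadjusted p under 0.05 was reached by 6 lower and 1 higher gene, against 5.81% lower and 4.72% higher over all genes, and 0 passed the adjusted threshold in limma. The median was -0.11 without aligned 3. The 6 lower genes became 3 without aligned 3, 4 without random 2 and 3 without random 3. In these settings 456, 425 and 345 of all 12381 genes were lower at that level, against 719 with all arrays. The 6 became 5 without aligned 1 and 7 without random 1, where 1256 and 686 of all genes were lower at that level. SESN3, a sestrin that restrains mTORC1, read 8.19, 8.02 and 7.02 on aligned and 8.93, 8.64 and 9.05 on random arrays. Its difference was -1.13 ± 0.29 (SE), and -0.77 without aligned 3. TXNIP, an inhibitor of glucose uptake, read 9.01, 9.08 and 8.19 against 9.40, 9.82 and 10.05. Its difference was -0.999 ± 0.26, and -0.71 without aligned 3. CDKN1B, the cell cycle inhibitor p27, differed by -0.38 ± 0.12, and was at -0.25 without random 3. TRIB1, a pseudokinase, differed by 0.62 ± 0.15 in the other direction (0.48 without aligned 3). FOXO1 and FOXO3 themselves differed by -0.26 ± 0.14 and -0.02 ± 0.10 with overlapping groups. FOXO1 was at -0.14 without aligned 3, and FOXO3 turned to 0.02 without that array.

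Around the IGF2BPs, HMGA2 read 8.75, 8.98 and 9.37 on aligned and 8.32, 8.39 and 7.74 on random arrays, without overlap. Its log2 difference was 0.88 ± 0.21 (SE; adjusted p = 0.463 in limma), 0.71 without aligned 3 and 0.68 without random 3. HMGA2 was the 1 gene of the 17 measured of 21 listed with an unadjusted p under 0.05, where 10.5% of all genes were. The list's median was -0.01. The laminin chain LAMB2 and the kinesin KIF1A differed by -0.17 ± 0.07 and 0.22 ± 0.10 (KIF1A by 0.14 without random 3), and PABPC1, the poly(A)-binding protein, by 0.11 ± 0.08. IGF2BP1, the third member of the family, passed the filter with 1 of its 3 probe sets, at most at percentile 54.2 of an array, and differed by 0.10 ± 0.09 (0.18 without aligned 3). Of the mannose 6-phosphate receptor route, in which IGF2R works, 16 of 17 genes were measured, 9 higher and 7 lower with a median of 0.02. PLAUR, the urokinase receptor and a partner of IGF2R, differed by 0.51 ± 0.16 with overlapping groups and was the 1 gene of that list at an unadjusted p under 0.05 (10.5% of all genes), though not without random 2 or random 3. PLAU, urokinase itself, differed by 0.77 ± 0.41 and by 0.36 without random 3. GNPTAB, which makes the mannose 6-phosphate tag, differed by -0.14 ± 0.09 (-0.06 without aligned 3), and SNX2, a subunit of the retromer coat, by -0.10 ± 0.09 (-0.04 without random 3).

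**Figure D4:**
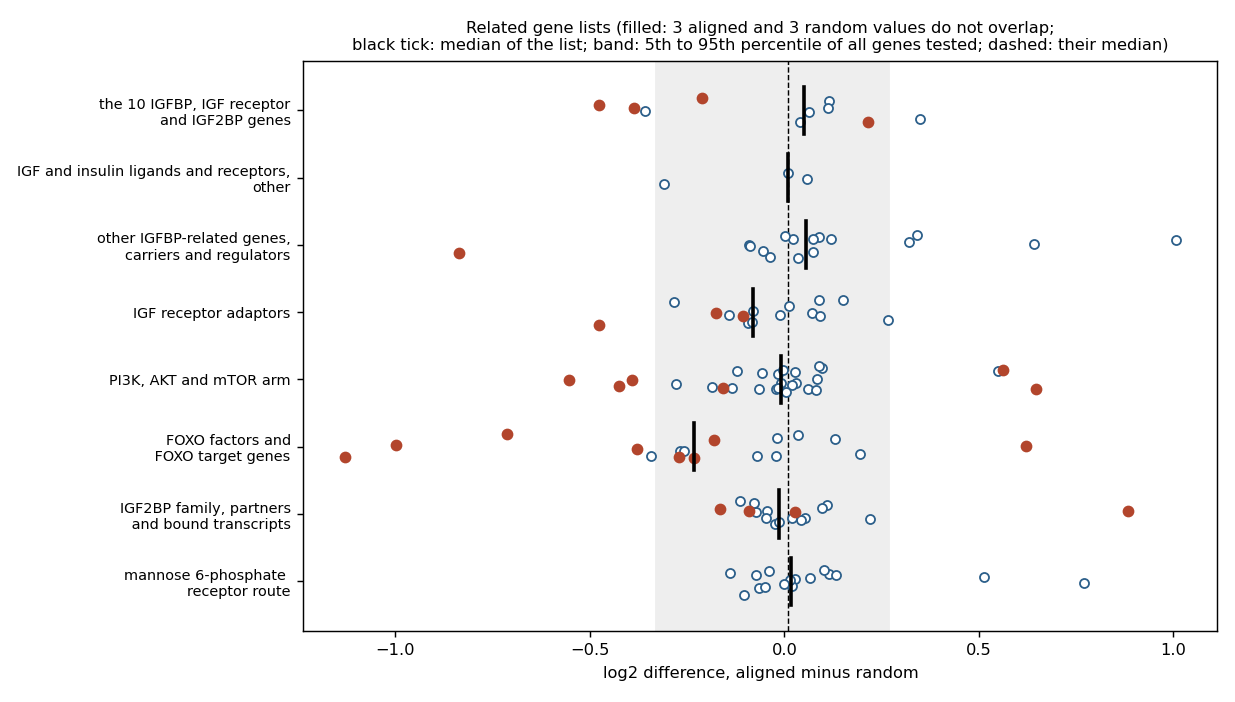
Log2 difference, aligned minus random, of the 10 genes and of the measured genes of 7 related lists, with filled points where the 3 aligned and 3 random values do not overlap and a black tick at the median of each list. The band spans the 5th to 95th percentile of all 12381 genes, from -0.33 to 0.27. The median of the FOXO list lies at -0.23, and the other medians lie between -0.08 and 0.05.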

How the data were processed

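Values of 6 arrays of the Affymetrix HG-U133 Plus 2 type were used, with groups and numbers read from the titles. Per the submitters' processing notes the authors used RMA, and the deposited values are log2 signals per probe set. The version of RMA is not given in the sources used. After removal of 62 control probe sets, 27621 of 54613 were kept where at least 3 of 6 arrays lay above their own median. A gene was represented by its kept probe set with the highest mean, giving 12381 genes. Symbols follow the platform annotation (41091 probe sets with 1 symbol, 1801 with several, 11721 with none). Of those with 1 symbol, 41037 matched RefSeq by gene identifier. Aligned minus random was fitted with limma 3.58.1 (lmFit, eBayes) in R 4.3.3 and adjusted by Benjamini-Hochberg over all genes or probe sets, with 4 residual degrees of freedom per gene. P-values are two-sided, and the number of arrays limits the precision. The code was tested on simulated data. Figures used matplotlib 3.10.9 in Python 3.11.15.

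The members and lists were chosen with earlier results of these data known. Named were the members, all their probe sets, and per list up to 4 genes of lowest unadjusted p. PAPPA, FOXO1, FOXO3 and IGF2BP1 were named for their role where the rule did not take them. Alternatives were other filters, centring, a second quantile normalization, array weights, a prior with trend and robust fit, the mean of kept probe sets, omission of probe sets with the suffix _x_at, _s_at or _a_at, and each array left out. A fit with the replicate number as a block was also an alternative. The deviations of arrays numbered 1, 2 and 3 from their group means correlated across genes by 0.369, 0.322 and 0.109, above the limit of 0.1. Aligned 2 and random 3 correlated by 0.188, and no label states what a number shares.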

Additional observations from a re-analysis of the deposited data

How the results depend on the processing

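None of the 10 genes passed the adjusted threshold in any alternative other than array weights. With array weights IGFBP5 (-0.51, adjusted p = 0.00838), IGFBP2 (-0.38, 0.0170), IGFBP7 (-0.22, 0.0225) and IGF2BP2 (0.22, 0.0236) passed in limma. That fit gave aligned 2 a weight of 15.2 and aligned 3 one of 0.245, and its estimate over genes stopped with a convergence warning. It called 2101 of 12381 genes, and 4326 (34.9%) had an unadjusted p under 0.05, with 7 members among them. A separate estimate over probe sets converged, with weights of 8.49 for aligned 2 and 0.308 for aligned 3, and 291 probe sets were called. The count of 1303 genes at an unadjusted p under 0.05 was 851 with the filter at the 75th percentile, where fewer genes were tested, 1687 in the fit with a replicate block, and 624 to 2491 with 1 array left out. Leaving out 1 array gave 0 genes and 0 to 1 probe sets past the adjusted threshold. The block moved no adjusted call. IGFBP2, IGFBP5, IGFBP7, IGF1R and IGF2BP2 kept their sign in all 15 alternatives, and IGFBP4 and IGF2BP3 in the 14 that gave a value. IGFBP6 was at -0.10 with array weights. With 1 array left out it ranged from -0.048 to 0.24, IGFBP3 from -0.032 to 0.22 and IGF2R from -0.025 to 0.11; the cause was not tested. IGFBP3 has no value without _s_at probe sets, and IGFBP4 and IGFBP6 have none with the filter at the 75th percentile. IGF2BP3 also has none without _s_at probe sets.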

Other observations

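In the order of protein-coding genes of GRCh38.p14, IGFBP2 and IGFBP5 are next to each other on chromosome 2. Both read lower on aligned fibers, at -0.48 and -0.39. The value of IGFBP5 rests on 1 of its 4 kept probe sets, whose mean differed by -0.14, and IGFBP2 has 1 probe set. IGFBP1, the neighbour of IGFBP3 on chromosome 7, stayed at or below percentile 9.58 of every array and was not tested.

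The 250 bases before the start of IGF2R hold CACGTG in 3 places, and 0.0801% of all windows hold it in 3 or more. The window before IGF2BP3 holds it in 2 places, and the windows of the other 7 genes with an entry hold it in 0. The log2 differences of IGF2R and IGF2BP3 were 0.04 and 0.11, with overlapping groups.

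The difference of IGFBP5 became larger in size without the distant array aligned 3, from -0.39 to -0.47, whereas those of IGFBP2 and IGF1R became smaller, at -0.33 and -0.17.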
